A study of Mus musculus with 12 samples.

Results

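Sertoli cell genes are the genes switched on in the supporting cells that build the testis cords. The group described here held 9 of them, *Sox9*, *Sox8*, *Dmrt1*, *Amh*, *Dhh*, *Fgf9*, *Ptgds*, *Cbln4* and *Aard*, taken by gene name from Agilent whole-genome arrays of mouse fetal gonads at E14.5. They were represented by 13 of 41174 probes and were 9 of the 29182 genes on the arrays. All 9 passed the filter on dim probes and were among the 18843 genes tested.

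There were 4 groups of 3 arrays. Control testes 1 to 3 and control ovary 1 were Smad4Flox/+ StellaMerCreMer Stra8+/-, control ovary 2 was Smad4Flox/+ Stra8+/- and control ovary 3 was Smad4Flox/Flox Stra8+/-, so that the last 2 carried no Cre. The *Smad4 (Stella)* ovaries were Smad4flox/flox MerCreMer Stra8+/−, and the DKO (double knockout) ovaries were Smad4flox/flox MerCreMer Stra8−/−. In every group the dams had received tamoxifen at E9.5 and E10.5, the embryos were of mixed background, and all groups other than DKO carried 1 null *Stra8* allele. The Cre was driven by the *Stella* element, which is active in germ cells, and depended on tamoxifen, so supporting cells were not targeted, and germ cells that did not recombine kept *Smad4*. *Stra8* was null in every cell of the DKO embryos. Each array held RNA from 1 pair of gonads, 0.20 µg labelled with Cy3, and all cell types of the gonad contributed to it.

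In the XY gonad, *Sry* acts in the supporting cell lineage to raise *Sox9*, and SOX9 with its relative SOX8 then drives the Sertoli programme. FGF9 and prostaglandin D2, which is made by the enzyme encoded by *Ptgds*, help to keep *Sox9* on, while AMH and DHH carry signals from Sertoli cells to other cells. In the XX gonad the same lineage becomes pregranulosa cells under WNT4, RSPO1 and FOXL2. *Dmrt1* is known as a gene of both Sertoli cells and germ cells.

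Probes from the coding sequence of 3 members, *Sox9*, *Sox8* and *Amh*, are shown as sites at which these genes were read. The *Sox9* probe lies in the part of the gene that encodes the DNA-binding HMG box and spans an intron, at chr11:112644310-112645162 of mm9 on the plus strand. The *Sox8* probe is at chr17:25705869-25705928 on the minus strand, and the *Amh* probe at chr10:80270208-80270267 on the plus strand. Each is 60 bases long, and they are given in the sense of the gene:
Sox9: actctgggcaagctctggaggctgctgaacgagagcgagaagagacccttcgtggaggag
Sox8: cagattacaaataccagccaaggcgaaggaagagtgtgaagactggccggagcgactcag
Amh: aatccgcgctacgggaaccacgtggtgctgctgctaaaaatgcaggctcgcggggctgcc

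Each level is a log2 processed signal from which the 75th percentile of its array was taken, so that 0 is the 75th percentile and 1 unit is a 2-fold difference. Such a level can be compared between samples for 1 gene but not between genes. The 75th percentile itself ranged from 476 to 997 intensity units over the 12 arrays, 58.8% to 70.5% of probes were well above background, and no spot was saturated. Arrays of 1 group correlated at r = 0.975 to 0.994 across genes. The targeted genes were read in the same way. *Smad4* ranged from 1.96 to 2.19 over the DKO arrays and from 1.99 to 2.35 over the control ovary arrays. *Stra8* ranged from 5.28 to 5.61 in DKO ovaries, from 6.16 to 6.71 in control ovaries and from -2.98 to -2.32 in control testes. Whether these probes lie within the deleted parts was not determined, and *Smad4* was removed only from germ cells, so neither level tests the genotypes. The arrays came from 3 slides. Slide 1 held the 3 control testes and control ovary 1, slide 2 held control ovaries 2 and 3 with DKO ovaries 1 and 2, and slide 3 held the 3 *Smad4 (Stella)* ovaries with DKO ovary 3.

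The question put first was how far the 9 genes separated the sexes in control gonads. Of the 9, 8 were higher in the testes than in the ovaries at an adjusted p under 0.05 and at least 1.5-fold, and *Fgf9* was not called. Among the 8, *Sox8*, *Amh* and *Cbln4* had passed the filter on dim probes only through the testes. Their calls are therefore not independent of how they entered the test. Over all genes, 17.2% were called higher in the testes. The median log2 fold change was 3.40 over the 9 genes and 0.02 over all genes. Normexp background correction lowered the larger differences, to 2.19 for *Sox9*, 4.14 for *Amh*, 5.74 for *Ptgds* and 5.99 for *Dhh*, all still called. With it *Sox8*, *Cbln4* and *Dmrt1* were no longer called, which left 5 members. The arrays of the sexes did not overlap for any of the 9, as was also the case for 58.4% of all genes. With 3 arrays against 3, the exact permutation test of a single gene cannot give a p below 0.1, so the p-values below are those of limma, adjusted by Benjamini-Hochberg over all genes.

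The next question was whether ovaries carrying the deletions differed from control ovaries in these genes. Of the 9 members, limma called 1 in DKO ovaries, *Dmrt1*, and 0 in *Smad4 (Stella)* ovaries. Over all genes, the share called was 14.7% in the DKO comparison and 0.271% in that of the *Smad4 (Stella)* ovaries. The median change of the 9 was 0.01 in the former and 0.15 in the latter, against 0.00376 and -0.02 over all genes. In the latter, 3 members (*Amh*, *Ptgds* and *Dmrt1*) had an unadjusted p under 0.05, and the methods' t-test after adjustment also called 0. These comparisons share the control ovaries.

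**Figure D1:**
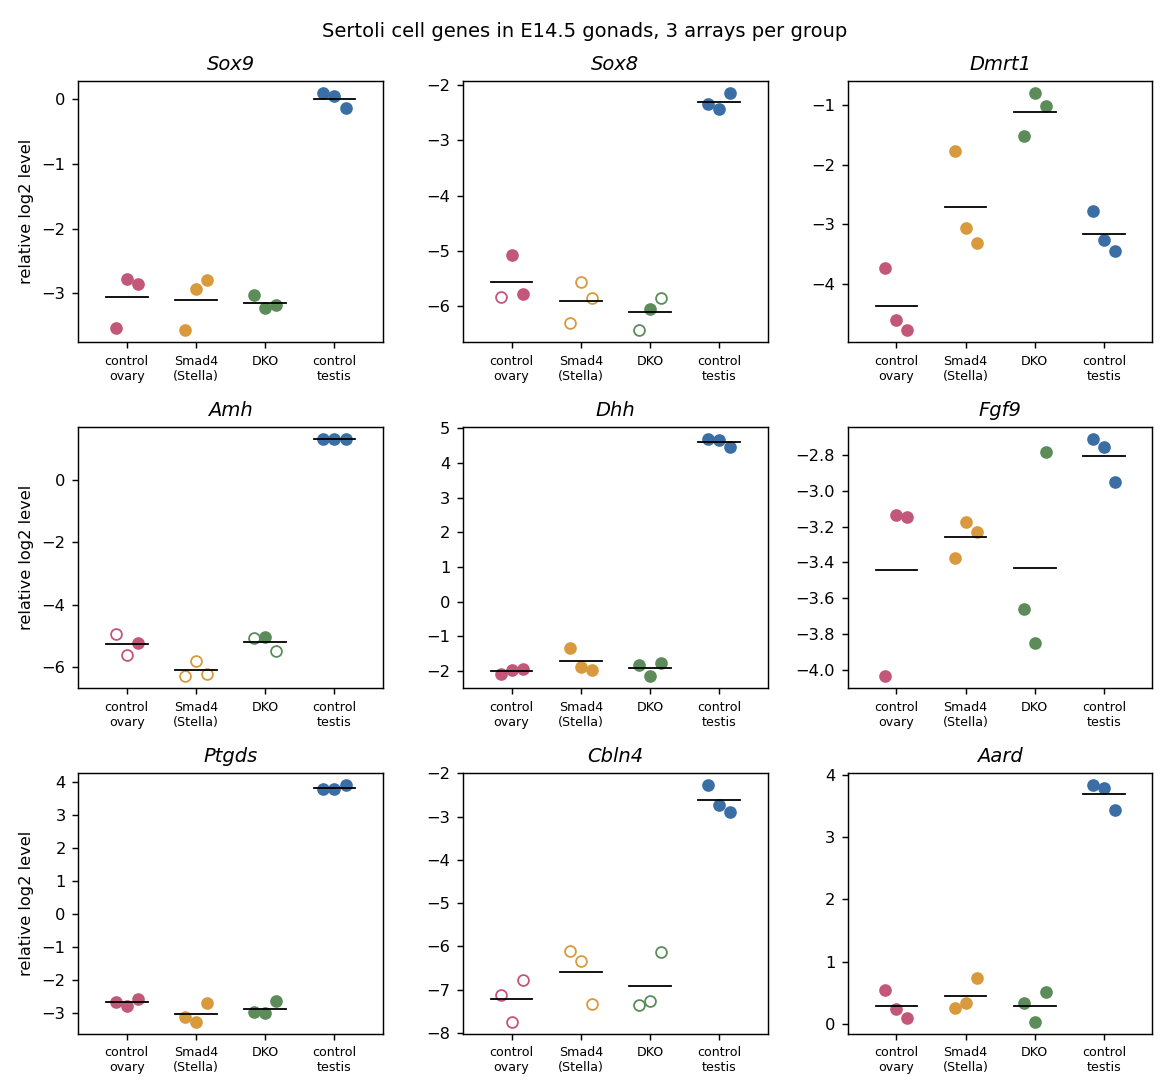
Relative log2 level (centred on the array's 75th percentile, vertical axis, with its own range in each panel) of the 9 Sertoli cell genes on each of 3 arrays per group. Filled points were well above background, open points were not, and the horizontal line is the group mean. Testes stand apart in 7 panels, *Fgf9* spreads widely among ovaries, and *Dmrt1* is highest in DKO ovaries, between -1.52 and -0.80.

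*Sox9* encodes the transcription factor that commits supporting cells to the Sertoli fate. Averaged over its 3 probes, its level was 0.10, 0.05 and -0.14 in control testes 1, 2 and 3. Control ovaries 1 to 3 gave -3.54, -2.78 and -2.86, *Smad4 (Stella)* ovaries -3.58, -2.93 and -2.80, and DKO ovaries -3.03, -3.23 and -3.18. The ovary groups overlapped each other and all lay about 3 log2 units below the testes. Testes exceeded control ovaries by 3.06 (SE 0.23, adjusted p = 2.71e-06), an 8.35-fold difference. DKO ovaries differed from control ovaries by -0.09, with a 95% confidence interval of -0.60 to 0.42. *Smad4 (Stella)* ovaries differed by -0.05, with an interval of -0.55 to 0.46.

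The 3 *Sox9* probes could be compared with one another. The probe shown above was not well above background in any ovary group and was at -3.98, -4.03 and -4.29 in the testes. The other 2 lie further 3′, at chr11:112647008-112647067 and chr11:112648809-112648868. The last of these was printed at 10 spots on every array, which gives the measurement error within an array. The SD between its spots was 0.06 to 0.12 log2 units. Control ovaries 1, 2 and 3 had means of -1.67, -1.19 and -0.80 for this probe, further apart than the spots of 1 array. Control ovary 1 was on another slide than the other two, and the 3 also differ in genotype. The control testes gave 1.92, 1.94 and 1.83.

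**Figure D2:**
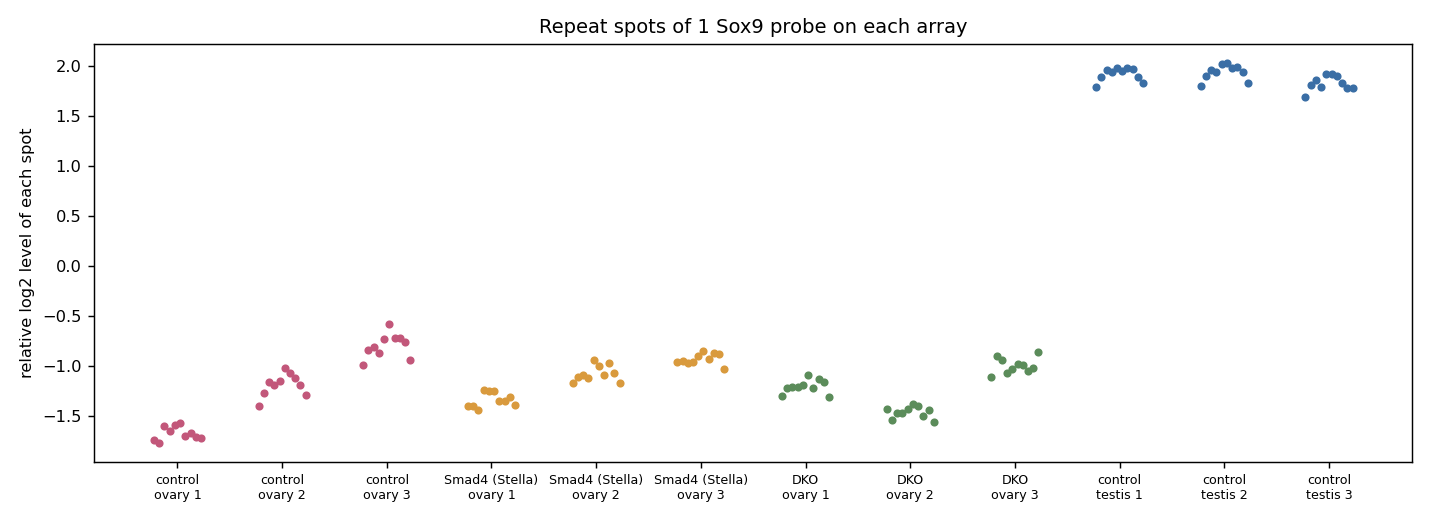
Relative log2 level of each of the 10 spots of 1 *Sox9* probe (vertical axis) on each of the 12 arrays (horizontal axis), coloured by group. Spots of 1 array lie close together, with an SD of 0.06 to 0.12, while the control ovaries run from -1.67 to -0.80 on average and the testes lie between 1.83 and 1.94.

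*Sox8*, a relative of *Sox9* that acts beside it, was at -2.34, -2.43 and -2.14 in the control testes over its 2 probes. Control ovaries gave -5.83, -5.08 and -5.79, *Smad4 (Stella)* ovaries -6.31, -5.57 and -5.85, and DKO ovaries -6.44, -6.05 and -5.85. At least 1 of its probes was well above background on 2 of the 3 control ovaries, 0 of the 3 *Smad4 (Stella)* ovaries and 1 of the 3 DKO ovaries. The DKO values lay below those of the control ovaries without overlap, and 32.9% of all genes did not overlap in one direction or the other. The DKO values were close to background. Testes exceeded control ovaries by 3.26 (SE 0.25, adjusted p = 2.76e-06), which fell to 1.38 (adjusted p = 0.149) with normexp background correction. DKO ovaries were at -0.55 against control ovaries, with an interval of -1.09 to -0.00394 and an adjusted p of 0.143, and were not called.

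*Amh* encodes the hormone that makes the Müllerian ducts regress. Control testes gave 1.33, 1.34 and 1.32, the closest agreement between replicates of any member (SD 0.01). Control ovaries gave -4.96, -5.61 and -5.23, and 1 of the 3 was well above background. DKO ovaries gave -5.08, -5.03 and -5.50, again with 1 of 3 above background, and *Smad4 (Stella)* ovaries gave -6.29, -5.81 and -6.23, with 0 of 3. All 9 ovaries were thus more than 6 log2 units below the testes, at or near the background. Testes exceeded control ovaries by 6.59 (SE 0.19, adjusted p = 6.72e-09), which is 96.4-fold. That figure rests on ovary signals of which most were not above background, and with normexp background correction the difference was 4.14.

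Between DKO and *Smad4 (Stella)* ovaries, *Amh* was called higher in the DKO ovaries by 0.91 (SE 0.19, adjusted p = 0.0127), where 4.38% of all genes were called higher. No fold is given, since only 1 of the 3 DKO arrays was well above background. This call concerns signals of which 5 of 6 were not well above background, and it was lost without *Smad4 (Stella)* ovary 3 (adjusted p = 0.0576), with the slide as a block (0.61, adjusted p = 0.146) and under quantile normalization, normexp correction, the deposited table and the methods' t-test (adjusted p from 0.0767 to 0.487). *Smad4 (Stella)* ovaries were at -0.85 against control ovaries, which was not called (adjusted p = 0.0788).

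*Dhh* encodes Desert hedgehog, which reaches fetal Leydig cell precursors through the receptor PTCH1. It was at 4.70, 4.66 and 4.47 in the testes and at -2.10, -1.97 and -1.96 in control ovaries. *Smad4 (Stella)* ovaries gave -1.33, -1.88 and -1.97, and DKO ovaries -1.83, -2.15 and -1.76. All arrays were well above background, and the ovary groups overlapped. Testes were 98.3-fold above control ovaries, a log2 difference of 6.62 (SE 0.17, adjusted p = 4.17e-09). The DKO ovaries differed from control ovaries by 0.10, with an interval of -0.28 to 0.47.

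*Fgf9*, a growth factor that opposes *Wnt4* in the early gonad, was not called between the sexes. Over its 2 probes, testes gave -2.71, -2.75 and -2.95, and control ovaries -4.03, -3.14 and -3.15. *Smad4 (Stella)* ovaries were at -3.37, -3.18 and -3.23, and DKO ovaries at -3.66, -3.85 and -2.78. Control ovary 1 and DKO ovary 3 stood away from the other ovaries of their groups. Testes exceeded control ovaries by 0.63 (SE 0.29, adjusted p = 0.0967). The probes differed. That at chr14:58728424-58728483, which alone was kept when the probe of highest mean signal stood for each gene, gave 0.86 and passed (adjusted p = 0.0182). With the slide as a block, the testes differed by 1.23 (adjusted p = 0.000394), and *Fgf9* was lower in DKO than in control ovaries by 0.61 (adjusted p = 0.0109). That fit compares the testes with control ovary 1, the lowest of the 3, since it alone shared their slide.

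*Ptgds* encodes a prostaglandin D2 synthase. Its levels were 3.79, 3.76 and 3.91 in the testes and -2.67, -2.78 and -2.56 in control ovaries, a 90.0-fold difference (log2 6.49, SE 0.16, adjusted p = 3.29e-09). *Smad4 (Stella)* ovaries gave -3.12, -3.26 and -2.69, and DKO ovaries -2.96, -2.99 and -2.64. The DKO ovaries were at -0.19 against control ovaries, with an interval of -0.53 to 0.15, and the *Smad4 (Stella)* ovaries at -0.35 (adjusted p = 0.249). The ovary groups overlapped.

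*Cbln4* encodes a secreted protein of the cerebellin family. It was at -2.26, -2.72 and -2.89 in the testes and not well above background on any of the 9 ovary arrays, which read -7.75 to -6.11. In the main analysis the testes were at least 7.79-fold above control ovaries (adjusted p = 8.88e-06). This bound takes each ovary signal as no lower than the lowest probe well above background on its array. It does not hold under every alternative, where the log2 difference went as low as 1.31. With normexp background correction the call between the sexes was lost (adjusted p = 0.190). No fold is given between ovary groups.

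*Aard* encodes a protein rich in alanine and arginine. No array failed the background test for it, and ovaries read 0.55, 0.23 and 0.09 in controls, 0.26, 0.34 and 0.73 in *Smad4 (Stella)* and 0.33, 0.03 and 0.51 in DKO ovaries. Testes gave 3.85, 3.78 and 3.43. The sexes differed by 3.40 (SE 0.18, adjusted p = 3.5e-07). The ovary groups overlapped, and DKO ovaries differed from control ovaries by 0.000804, with an interval of -0.41 to 0.41.

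*Dmrt1*, a DM-domain transcription factor that holds Sertoli cells in their fate after birth and also acts in germ cells, was the one member whose highest level was not in the testes. Its single probe is at chr19:25677951-25678010 on the plus strand. DKO ovaries gave -1.52, -0.80 and -1.02. *Smad4 (Stella)* ovaries gave -1.77, -3.06 and -3.33, and control testes -2.78, -3.27 and -3.45. Control ovaries were lowest, at -3.74, -4.61 and -4.79, the first being the one with Cre and on the testis slide. Every array was well above background. The DKO values overlapped with no other group, whereas *Smad4 (Stella)* ovaries and testes overlapped.

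DKO ovaries exceeded control ovaries in *Dmrt1* by 3.27 (SE 0.41, adjusted p = 0.000335), or 9.64-fold, against a background of 6.69% of genes called higher. The difference was 3.54 within slide 2, where 2 arrays of each group lay, and it passed under each alternative tried, from 2.13 to 3.59. DKO ovaries also exceeded control testes, by 2.06 (SE 0.41, adjusted p = 0.00294), or 4.17-fold. That difference passed under each alternative as well. In the order of levels, the lower steps were less secure. Testes exceeded control ovaries by 1.21 (SE 0.41, adjusted p = 0.0321), and the value was 0.57 within slide 1 (adjusted p = 0.447 with the slide as a block). Leaving out control testis 1 or 2, or control ovary 2 or 3, also ended this call, with adjusted p from 0.0633 to 0.106, as did normexp correction, the deposited table, no filter on dim probes and the methods' t-test (0.0574 to 0.193). DKO ovaries exceeded *Smad4 (Stella)* ovaries by 1.61 (SE 0.41, adjusted p = 0.0296), the other member called in this comparison. The value was 1.70 within slide 3 (adjusted p = 0.135 with the slide as a block). Without DKO ovary 2 or 3, or *Smad4 (Stella)* ovary 2 or 3, it missed the threshold, with adjusted p from 0.0627 to 0.120, as it did with normexp correction, the deposited table, no filter, only the groups compared and the methods' t-test (0.0534 to 0.200). *Smad4 (Stella)* ovaries exceeded control ovaries by 1.66 (adjusted p = 0.0879) and differed from testes by 0.45 (adjusted p = 0.400). Neither was called.

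Some germ cell markers were also higher in DKO ovaries. Of 6 listed genes, 4 were called higher than in control ovaries, where 6.69% of all genes were. *Nanos3*, above background on 1 of 3 control ovaries, was higher by 3.82, *Dppa3* by 2.33, *Piwil2* by 1.39 and *Tdrd1* by 1.38. *Ddx4* (0.14) and *Dazl* (-0.08), which mark germ cells of both sexes, were not called (adjusted p = 0.561 and 0.736). In *Smad4 (Stella)* ovaries 0 of the 6 were called against control ovaries, where 0.271% of all genes were. Their changes in that comparison ran from -0.35 to 0.99, with a median of -0.03. The mean level of the 6 markers was 2.06 to 2.56 on the DKO arrays, 0.58 to 1.16 on the control ovary arrays, 0.83 to 1.23 on the *Smad4 (Stella)* arrays and 1.77 to 2.19 on the testis arrays. The 6 markers were measured on all DKO arrays. Their part in the *Dmrt1* result was not tested. In whole gonads, more cells of a type and more RNA per cell cannot be told apart.

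**Figure D3:**
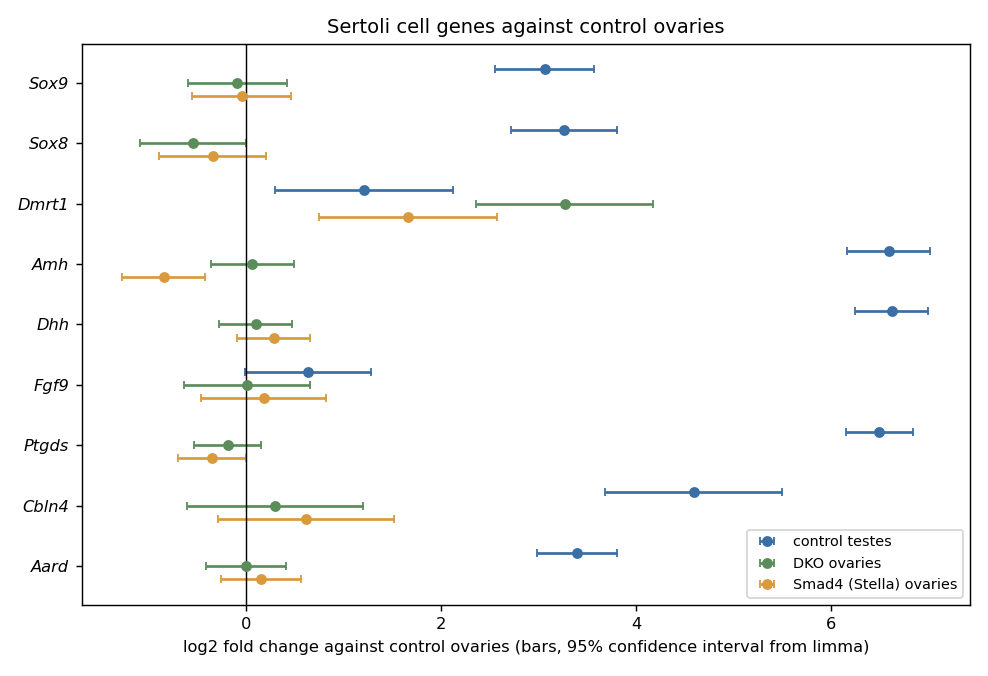
Log2 fold change against control ovaries (horizontal axis) of the 9 genes in control testes, DKO ovaries and *Smad4 (Stella)* ovaries, with points for the limma estimate from 3 arrays per group and bars for its 95% confidence interval. Only for *Dmrt1* does the DKO estimate (3.27) lie above that of the testes (1.21). *Cbln4* in all ovary groups and *Amh* on most ovary arrays were not well above background.

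Seen from the testes, 7 members were called lower in DKO ovaries and 1, *Dmrt1*, higher, where 13.0% of all genes were called lower and 12.7% higher. *Smad4 (Stella)* ovaries were lower in the same 7 members, with *Dmrt1* and *Fgf9* not called and 16.2% of all genes called lower. The 7 were *Sox9*, *Sox8*, *Amh*, *Dhh*, *Ptgds*, *Cbln4* and *Aard*. *Ptgds* was 103-fold and *Dhh* 91.9-fold lower in DKO ovaries than in testes. *Amh* was 92.2-fold lower, with 1 of the 3 DKO arrays above background, and in *Smad4 (Stella)* ovaries it was at least 142-fold lower. With normexp background correction the log2 differences for *Amh* were -3.49 and -4.33, so these folds depend on how background was treated. *Fgf9* was at -0.62 in DKO ovaries against testes (adjusted p = 0.117), and was called lower without DKO ovary 3 (-0.95, adjusted p = 0.0151), with the probe of highest signal (-0.72, adjusted p = 0.0482) and with the slide as a block (-1.84, adjusted p = 0.00066). The slide block also called it lower in *Smad4 (Stella)* ovaries (-2.32, adjusted p = 0.00116), against -0.45 (adjusted p = 0.232) in the main fit. No testis shared a slide with a mutant ovary. Both slide-block values therefore rest on control ovary 1, and that of the *Smad4 (Stella)* ovaries also on DKO ovary 3. For *Fgf9* these arrays stood away from their groups. With normexp background correction *Sox8* and *Cbln4* were not called lower in either set of mutant ovaries.

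Other genes of fetal Sertoli cells were examined in the same way. Of 19 listed, 18 were on the arrays and all 18 were called higher in control testes than in control ovaries, with a median of 4.69, against 17.2% of all genes. *Etd* was higher by 8.97 with 1 of 3 control ovaries above background, and *Cst9*, a cystatin, by 7.30. *Tesc*, which encodes tescalcin, was higher by 6.13. *Cyp26b1*, whose enzyme breaks down retinoic acid in the fetal testis, was higher by 5.45, and *Inha*, the inhibin alpha subunit, by 4.08. *Cldn11*, a tight junction protein, differed least, by 0.87. In DKO against control ovaries, limma called 0 of the 18, with changes from -0.84 to 0.38 and a median of 0.03, where 14.7% of all genes were called. *Cyp26b1* was at -0.12 and *Tesc* at -0.51 (adjusted p = 0.752 and 0.0646). In *Smad4 (Stella)* ovaries 0 of the 18 were called, with a median of -0.05, where 0.271% of all genes were called.

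Among 14 regulators that act on or around *Sox9* in testis determination, 13 were tested and *Sry* was not, being too dim. In testes 6 were higher and 3 lower than in ovaries, where 17.2% of all genes were higher and 16.8% lower. *Nr5a1*, which encodes the orphan receptor SF1, was higher by 1.47, and *Sox10*, a relative of *Sox9*, by 3.61. *Emx2* and *Wt1*, needed for early gonad growth in both sexes, were lower, as was *Nr0b1*. Those called higher in DKO than in control ovaries included *Six4* (0.96, adjusted p = 0.0135) and *Cbx2* (0.69, adjusted p = 0.0073). Their products, a homeodomain factor and a Polycomb protein, act upstream of *Sry* in the XY gonad. *Nr5a1* (0.41), *Gata4* (0.30) and *Wt1* (0.05) were not called. In *Smad4 (Stella)* ovaries 0 of the 13 were called against control ovaries, where 0.271% of all genes were.

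The receptors and response genes of the signals that members make were a further list of 15, of which 13 were tested. Hedgehog response genes were higher in testes, *Hhip* by 4.28, *Gli1*, above background on 1 of 3 control ovaries, by 3.60 and *Ptch1* by 2.31. The AMH receptor gene *Amhr2* was lower in testes by 1.13. In DKO ovaries *Ptch1*, which encodes the receptor of DHH, was called higher than in control ovaries (1.05, adjusted p = 0.0184), and was above background on 3 DKO and 2 control arrays. *Gli1* (0.81, adjusted p = 0.0792) and *Hhip* (-0.14, adjusted p = 0.821) were not called, nor were *Amhr2*, *Fgfr2* or the other 7 genes. For *Smad4 (Stella)* against control ovaries 0 of the 13 were called, where 0.271% of all genes were.

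**Figure D4:**
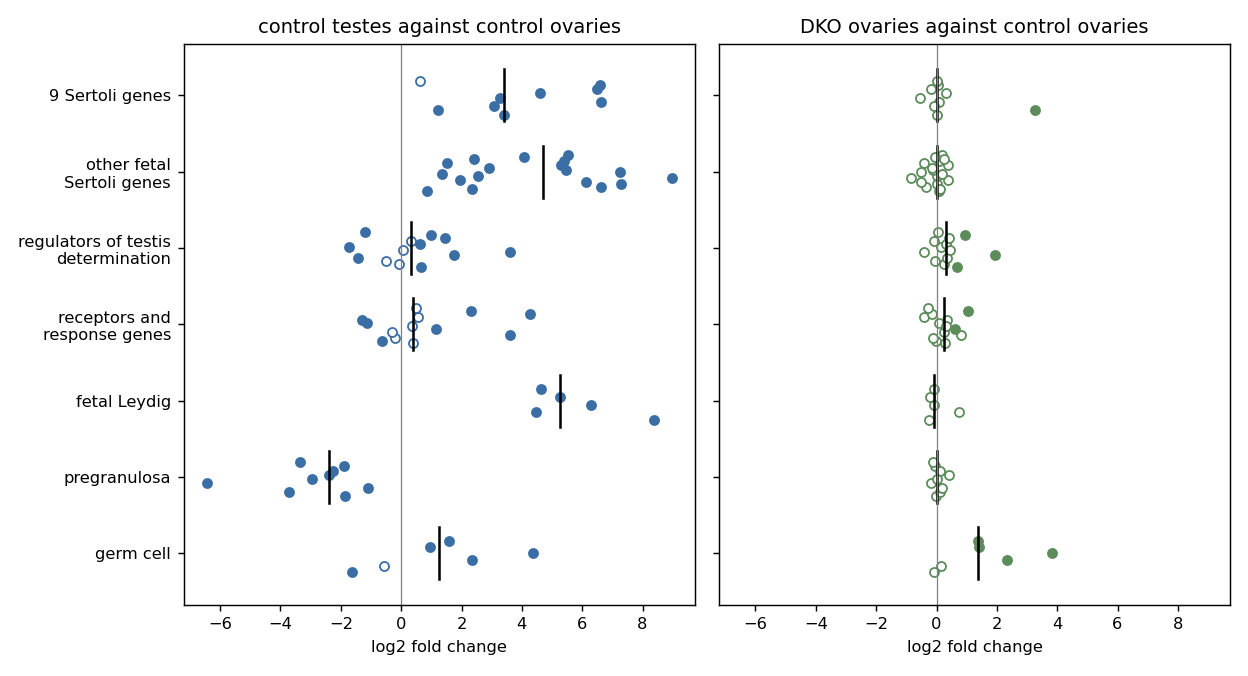
Log2 fold change of each tested gene (horizontal axis, 1 point a gene) by gene list (vertical axis) in control testes and in DKO ovaries, both against the same control ovaries. Filled points were called, open points were not, and the vertical bar is the list median. The other Sertoli genes have a median of 4.69 in testes and 0.03 in DKO ovaries, and the called points on the DKO side include *Dmrt1*, *Six4*, *Cbx2*, *Ptch1* and 4 germ cell genes.

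Markers of the other cells of the gonad gave the setting of these values. All 9 pregranulosa markers were lower in testes than in ovaries, where 16.8% of all genes were. *Fst* was lower by 6.44 and *Foxl2*, not well above background on any testis array, at least 3.97-fold. Against control ovaries, 0 of the 9 were called in DKO ovaries, where 14.7% of all genes were called. In *Smad4 (Stella)* ovaries 0 of the 9 were called, where 0.271% of all genes were. *Foxl2* was at 0.42 (adjusted p = 0.1) in DKO and 0.15 in *Smad4 (Stella)* ovaries. Fetal Leydig cell genes were higher in testes for 5 of 5 tested, *Cyp17a1* by 6.29, where 17.2% of all genes were called higher. Against control ovaries, 0 of 5 were called in either set of mutant ovaries, with the same shares over all genes as above. Of 5 markers of the mesonephros, the neighbouring tissue, *Lhx1* was called higher in DKO ovaries (1.54) and 4 were not called. Over all genes, 6.69% were called higher there. *Lhx1* averaged -4.15 in control ovaries, -2.84 in control testes and -2.60 in DKO ovaries. *Cdh16*, not called, spread widely within groups, at -4.15, -2.84 and 0.62 in control ovaries 1 to 3. DKO ovaries 1 to 3 gave -2.14, -2.91 and 1.20 for *Cdh16*. No endothelial or macrophage marker was called in DKO against control ovaries, and 2 of 5 erythroid genes were lower, where 7.98% of all genes were.

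Genes whose pattern over the 12 arrays was most like that of *Sox9*, by Pearson's r over 17968 genes, were *Clec12b* (0.991), *Gramd1b* (0.990), *Prlr* (0.988), *Sel1l3* (0.988) and *Me1* (0.987). The arrays share 3 testes far above 9 ovaries, which sets such values. For *Dmrt1* the 5 nearest included *2310037I24Rik* (0.965), *Prep* (0.961), *Ccno* (0.955) and *Kit* (0.946), none of which was among the 5 nearest to *Sox9*. These values describe the 12 arrays.

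RefSeq promoter windows (GRCm38.p6), from 250 bases before to 50 bases after the start of the gene, were held for 5 members, *Sox8*, *Dhh*, *Fgf9*, *Cbln4* and *Ptgds*. The letters AACAAT, the core bound by SOX proteins, were searched on both strands and were found in 1 of the 5, *Cbln4*, and in 10.7% of all 32851 windows. AAGGTCA, the site bound by NR5A1, was found in 0 of 5 and in 4.72% of all. AGATAA, of the GATA type, was found in 1 of 5, *Fgf9*, and in 11.2% of all. The 250 bases before the *Cbln4* start, chr2:172043467-172043716 on the minus strand, are shown as the only member window with the SOX letters. The match is in capitals, reads on the opposite strand and begins 242 bases before the start:
Cbln4: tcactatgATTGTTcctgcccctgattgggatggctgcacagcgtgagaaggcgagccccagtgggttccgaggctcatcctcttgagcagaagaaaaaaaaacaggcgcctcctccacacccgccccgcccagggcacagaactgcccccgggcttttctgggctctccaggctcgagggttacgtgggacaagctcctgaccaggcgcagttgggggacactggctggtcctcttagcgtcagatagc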

How the data were processed

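Agilent 1-colour arrays (design 014868, probe positions on mm9) were deposited by the authors as scanner output of Feature Extraction 11.0.1.1, whose processed intensity is already background-subtracted, and as a table of intensity values that differed from it by at most 0.497%. The deposited table was used as an alternative, in log2 and without centring of its arrays. In R 4.3.3, log2 processed intensity was centred on the 75th percentile of each array. Outlier spots were left out, spots averaged per probe, and dim probes removed unless all arrays of some group read them well above background (27309 of 41174 kept). Listed genes that passed this filter only through the testes included *Etd*, *Hsd17b3*, *Sox10*, *Gli1* and *Cyp11a1*. Probes were then averaged per gene. Of all 41174 probes, before the filter, 27050 matched a RefSeq symbol, and the others kept the gene name of the array design. limma 3.58.1 was fitted to all 12 arrays, with Benjamini-Hochberg adjustment over 18843 genes, and calls needed an adjusted p under 0.05 with at least a 1.5-fold difference. For a gene dim on every array of a group, the fold is a bound within the main processing. Its levels there were taken as no lower than the lowest probe well above background on each array. On simulated data the fit recovered changed genes before use. Samples were grouped by the genotype and sex in their titles. The labels name biological triplicates, and the number of arrays limits the precision. Members and lists were chosen with earlier results of these data known, and genes outside them were named only as the 5 most alike in pattern. *Rhox8*, *Ptgds2* and *Insl3* were not found by name, and *Sry* and *Ptgdr* were too dim. Some genes of these lists are not reported here. Figures were drawn with Python 3 and matplotlib.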

Additional observations from a re-analysis of the deposited data

How the results depend on the processing

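The count of Sertoli genes called kept within 1.5 times its value under most alternatives. In testes against control ovaries it was 8, and 5 with normexp background correction, which lost *Sox8*, *Cbln4* and *Dmrt1*, and it was 7 to 8 with 1 array left out. In DKO against control ovaries it was 1, and 2 with the slide as a block. In DKO against *Smad4 (Stella)* ovaries it was 2, and 1 with quantile normalization, no filter on dim probes, only the groups compared or a 2-fold threshold, 0 with normexp, the deposited table, the slide as a block or the methods' t-test after Benjamini-Hochberg, and 0 to 2 with 1 array left out (0 without *Smad4 (Stella)* ovary 3). In *Smad4 (Stella)* against control ovaries it stayed 0, with 3 members at an unadjusted p under 0.05. Replicate numbers did not pair the samples (correlations of same-numbered arrays -0.184 to 0.154, 2 of 18 over 0.1, 5 of 12 arrays closest to one of their own number), and the fit with the replicate block gave 8, 1, 2 and 0 members in these comparisons, in the same order.

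Changes that were not called in the main analysis turned sign as follows. In DKO against control ovaries, normexp gave *Sox9* 0.27, *Sox8* 0.53 and *Ptgds* 0.41, the deposited table *Sox9* 0.10, and the slide block *Dhh* -0.0235 and *Fgf9* -0.61. In *Smad4 (Stella)* against control ovaries, *Sox9* was 0.16 with quantile normalization, and the deposited table gave *Sox9* 0.38, *Sox8* 0.082 and *Ptgds* 0.0759. The brightest probe gave *Sox8* 0.0085 there, and the slide block *Fgf9* -1.09 and *Aard* -0.0411. In DKO against *Smad4 (Stella)* ovaries, normexp gave *Sox9* 0.35, *Dhh* 0.10 and *Fgf9* 0.55, the brightest probe *Sox9* 0.0116, the slide block *Fgf9* 0.48 and *Aard* 0.0619, and the deposited table *Ptgds* -0.0842. Against testes, normexp gave *Fgf9* 0.0526 in DKO and *Dmrt1* -0.0146 in *Smad4 (Stella)* ovaries. With 1 array left out, DKO against control ovaries ranged from -0.33 to 0.0477 for *Sox9*, -0.11 to 0.22 for *Amh*, -0.31 to 0.22 for *Fgf9* and -0.11 to 0.13 for *Aard*. *Smad4 (Stella)* against control ovaries ranged from -0.28 to 0.19 for *Sox9* and -0.12 to 0.33 for *Fgf9*. DKO against *Smad4 (Stella)* ovaries ranged from -0.28 to 0.11 for *Sox9*, -0.31 to 0.0085 for *Dhh* and -0.49 to 0.04 for *Fgf9*, and *Dmrt1* in *Smad4 (Stella)* ovaries against testes from -0.0234 to 0.76. The cause of these turns was not tested.

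Some settings moved the median of all genes, by 0.26 (normexp) and 0.19 (deposited table) in DKO and by 0.40 (deposited table) in *Smad4 (Stella)* against control ovaries. Over all genes, calls ran from 2667 to 6518 in testes (main 6399), 913 to 3036 in DKO (main 2764) and 0 to 66 in *Smad4 (Stella)* (main 51) against control ovaries. In DKO against *Smad4 (Stella)* ovaries they ran from 83 to 1914 (main 1592), and the deposited table turned a split of 826 higher and 766 lower into 112 and 413. Signals near background limit *Amh*, *Sox8* and *Cbln4* in ovaries.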
